A study of Mus musculus with 7 samples.

Results

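The Id family is a set of 4 genes, Id1, Id2, Id3 and Id4, that encode inhibitors of basic helix-loop-helix (bHLH) transcription factors. They were picked out by gene symbol and made up 4 of the 55450 gene models in the per-library files. All 4 passed the filter on low counts and were among the 16813 genes tested. Messenger RNA was read from whole cerebella of C57BL/6 mice at postnatal day 15, in 3 wild-type (WT) libraries and 4 libraries from mice labelled L3mbtl3 KO/+, which carry 1 knockout allele and 1 intact allele of L3mbtl3. No other allele, agent or treatment is named for either group, and the labels do not say which part of L3mbtl3 was deleted, nor the litters and the sexes. The labels count 4 KO/+ mice but give only the number of WT cerebella, so the p-values measure the spread between these samples only.

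ID proteins have a helix-loop-helix domain but no basic region. They pair with the E proteins (Tcf3, Tcf4 and Tcf12), the shared partners of tissue-restricted bHLH factors such as Atoh1 and Neurod1, and the resulting dimers do not bind DNA. Id1, Id2 and Id3 are classic targets of bone morphogenetic protein (BMP) signalling through SMAD proteins, and several Id genes also respond to Notch signalling, whose nuclear factor is RBPJ. L3MBTL3 is a methyl-lysine reader known to bind RBPJ at Notch target genes. In brain tissue, Id genes are known from dividing progenitors, astrocytes and blood vessels, and Id2 is also made by some neurons.

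Sequences at the starts of the genes are shown first, with matches to motifs of SMAD proteins and RBPJ. Sequence farther from the starts was not searched. The windows ran from 250 bases before to 50 bases after the RefSeq start (build GRCm38.p6) and were given for 3 of the 4 genes, Id2, Id3 and Id4. For 2 motifs both strands were searched, the SMAD element GGCGCC, which reads the same on both strands, and the RBPJ core TGGGAA, which reads TTCCCA on the other strand. Matches to these letters cannot overlap each other. Of 32851 such windows over all genes, 11.9% held the SMAD letters and 25.6% held the RBPJ letters. The matches in the Id windows are printed 5′ to 3′ on the strand of the gene, with the match in capitals.
Id2, SMAD letters, chr12:25096306-25096335, minus strand: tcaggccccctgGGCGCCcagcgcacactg
Id4, SMAD letters, chr13:48260956-48260985, plus strand: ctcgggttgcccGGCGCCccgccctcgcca
Id4, RBPJ letters on the opposite strand, chr13:48260866-48260888, plus strand: tgcccTTCCCAttggcccgagcg
The match in Id2 lay 231 bases before its start, and those in Id4 lay 148 (SMAD) and 245 (RBPJ) bases before its start. The Id2 window held no RBPJ letters and the Id3 window held neither motif. The Id3 window, chr4:136143572-136143871, began after the GENCODE M21 start of Id3 at 136143497 (plus strand). It thus lay inside the annotated gene, and the bases before that start were not searched. These matches describe letters in the window, and binding was not measured.

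In the GENCODE M21 annotation (GRCm38), Id1 lies on chromosome 2 at 152736251 to 152737410 (plus strand), Id2 on chromosome 12 at 25093799 to 25097140 (minus strand), Id3 on chromosome 4 at 136143497 to 136145755 (plus strand) and Id4 on chromosome 13 at 48261228 to 48266026 (plus strand). Id4 overlaps 2 genes on the opposite strand, A330033J07Rik, with 13.33 to 39.77 expected counts per library, and Gm49291, with 7.67 to 43.74, against 2594 to 4956 for Id4. The other three overlap no gene. No stretch of 50 bases in Id1, Id3 or Id4 transcripts was found in a transcript of another gene. Id2 shared 8 of 2433 such stretches (0.329%) with Gm6175, a gene listed at 0 in all 7 libraries.

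The libraries held 29248342 to 43761782 counts. L3mbtl3 itself was measured at 22.6, 26.8 and 23.2 CPM (CPM is the count scaled to library size, with TMM factors) in WT replicates 1 to 3 and at 19.7, 17.4, 22.3 and 23.0 CPM in KO/+ replicates 1 to 4. WT libraries had a mean of 24.2 ± 2.25 (SD, n = 3) and KO/+ libraries one of 20.6 ± 2.55 (SD, n = 4), the groups overlapped, and p was 0.143 by an exact permutation of the labels (two-sided, 35 assignments, smallest possible 0.0286). The transcript level did not separate the genotype labels, and with the deleted part unknown it is a partial check of them. The label of tissue was checked with 6 cerebellar genes (Gabra6, Neurod1, Zic1, Pcp2, En2 and Cbln1), which summed to 3173 to 4775 CPM per library, while the forebrain gene Emx1 had at most 5 counts.

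None of the 4 Id genes passed the test between L3mbtl3 KO/+ and WT cerebella. The estimated folds, KO/+ over WT, were 1.09 for Id1, 1.19 for Id2, 0.999 for Id3 and 1.12 for Id4, and the 2 genotypes overlapped for all 4. The 95% intervals of the folds ran from 0.933 to 1.28 for Id1, from 0.845 to 1.68 for Id2, from 0.865 to 1.15 for Id3 and from 0.879 to 1.43 for Id4, so none reached a 2-fold difference in either direction. The comparison asks whether Id transcripts differ when 1 allele of L3mbtl3 is lost. With edgeR's quasi-likelihood test, 0 of 4 Id genes had an adjusted p under 0.05, as did 0% of the 16813 genes. At an unadjusted p under 0.05 there were again 0 of 4, where the share of all genes was 3.15% (530 genes). DESeq2, limma-voom and limma-trend on log2(TPM + 1) also called 0 genes, with 597, 497 and 443 genes at an unadjusted p under 0.05. In 0 of 4 Id genes did the libraries of the genotypes separate completely, against 3.96% of all genes. The log2 fold changes were positive for 3 Id genes and negative for 1, with a median of 0.14 (all genes -0.0047), and Id3, the negative one, turned positive with upper-quartile scaling. In this bulk tissue, fewer cells of a type and less RNA per cell cannot be told apart.

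**Figure D1:**
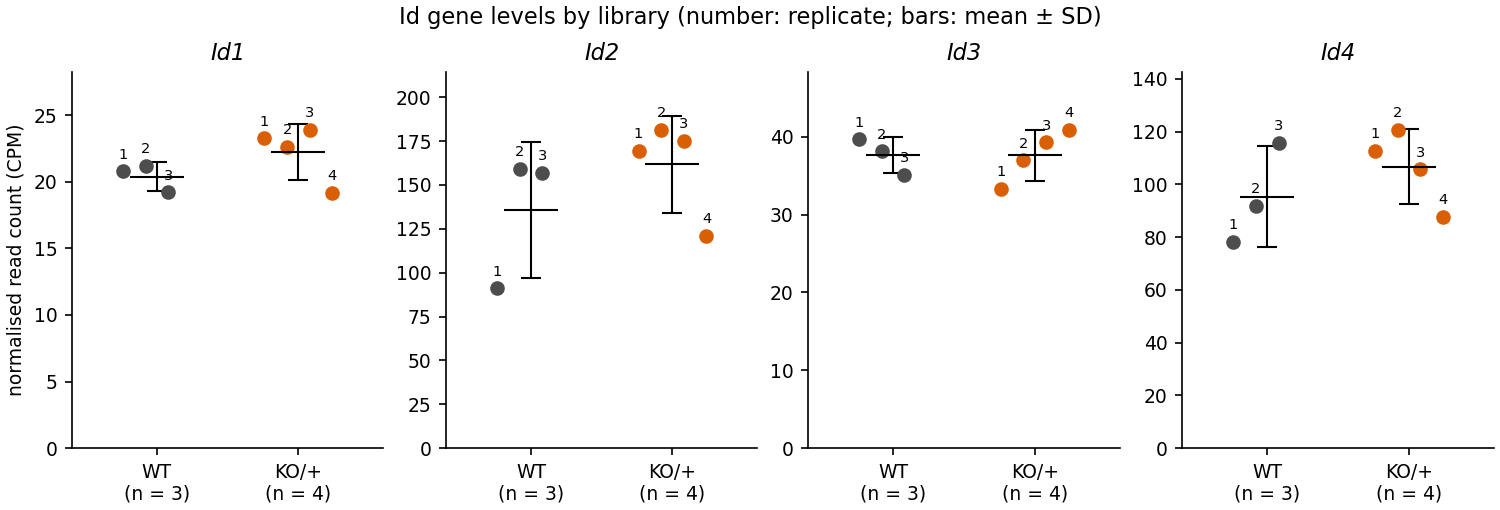
Normalised read count (CPM, linear axis from 0) of Id1, Id2, Id3 and Id4 in 3 WT and 4 L3mbtl3 KO/+ libraries; numbers are replicates and bars the mean ± SD. The points of the genotypes overlap in all 4 panels, and Id2 has the widest range, from 91.0 CPM in WT replicate 1 to 182 CPM in KO/+ replicate 2.

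Id1, a BMP target best known from endothelial cells and neural stem cells, had 20.8, 21.2 and 19.2 CPM in WT replicates 1 to 3 and 23.2, 22.6, 23.9 and 19.2 CPM in KO/+ replicates 1 to 4. KO/+ replicates 1, 2 and 3 lay above every WT library, and KO/+ replicate 4 lay level with the lowest WT library. The means were 20.4 ± 1.06 CPM (SD, n = 3) and 22.2 ± 2.11 CPM (SD, n = 4). The log2 fold change was 0.13 (SE 0.098, adjusted p = 0.957). Without KO/+ replicate 3 it was 0.077.

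Id2, which in the cerebellum is known from both neurons and glia, had 91.0, 159 and 157 CPM in WT and 170, 182, 175 and 121 CPM in KO/+. WT replicate 1 and KO/+ replicate 4 were low, and the other 5 libraries lay between 157 and 182 CPM. The WT mean was 136 ± 38.8 CPM (SD, n = 3), the KO/+ mean 162 ± 27.7 CPM (SD, n = 4), and the log2 fold change was 0.25 (SE 0.22, adjusted p = 0.957). The size rested on single libraries: it was 0.026 without WT replicate 1 and 0.38 without WT replicate 2. Markers of the choroid plexus, the epithelium that makes cerebrospinal fluid, also differed between libraries. Their 12 genes summed to 43.7, 1068 and 50.8 CPM in WT and to 1472, 1068, 753 and 49.1 CPM in KO/+, with Ttr, the thyroid hormone carrier, from 1.52 to 1349 CPM and Kcne2, a potassium channel subunit, at 0 in KO/+ replicate 4. The libraries low in Id2 were thus both low in choroid plexus genes, but WT replicate 3 was low in those genes at an Id2 level of 157 CPM. With the choroid plexus score as a covariate, an alternative chosen after the data were seen, the log2 fold change was 0.087 for Id2, 0.063 for Id1 and 0.082 for Id4, against 0.25, 0.13 and 0.16 without it.

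Id3, a BMP target expressed in vessels and astrocytes, had 39.7, 38.2 and 35.1 CPM in WT and 33.3, 37.0, 39.3 and 40.9 CPM in KO/+. The KO/+ libraries held both the lowest and the highest value, and the WT libraries lay within them. The means were 37.7 ± 2.32 CPM (SD, n = 3) and 37.6 ± 3.28 CPM (SD, n = 4), with a log2 fold change of -0.00073 (SE 0.091, adjusted p = 0.999). Leaving out KO/+ replicate 4 gave -0.053 and leaving out KO/+ replicate 1 gave 0.053, so the data give no direction for this gene.

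Id4, which is known from neural progenitors and astrocytes and can oppose the other ID proteins, had 78.2, 92.0 and 116 CPM in WT and 113, 121, 106 and 87.7 CPM in KO/+. WT replicate 3 lay among the high KO/+ libraries, and KO/+ replicate 4 lay between WT replicates 1 and 2. Means were 95.4 ± 19.0 CPM (SD, n = 3) and 107 ± 14.1 CPM (SD, n = 4), and the log2 fold change was 0.16 (SE 0.15, adjusted p = 0.957). It was 0.032 without WT replicate 1. Without WT replicate 3 it was 0.33, with an unadjusted p of 0.0413 and an adjusted p of 0.598 (edgeR).

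The genes differed in how much they varied between libraries. The highest library was 1.25 times the lowest for Id1, 1.23 times for Id3, 1.54 times for Id4 and 1.995 times for Id2. Among WT libraries the coefficient of variation was 5.20% for Id1, 6.17% for Id3, 19.95% for Id4 and 28.6% for Id2, and among KO/+ libraries it was 9.47%, 8.72%, 13.2% and 17.1% in the same order. Counting error alone would give at most 4.20% for Id1, 2.95% for Id3, 1.96% for Id4 and 1.70% for Id2, from 567 to 879, 1152 to 1512, 2594 to 4956 and 3465 to 7055 reads per library. Id2 and Id4 thus had the larger coefficients of variation in both genotypes.

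Levels of different genes were compared per length, as deposited TPM, which is scaled by transcript length and library. Id2 was the most abundant in every library, at 152.84, 272.05 and 258.16 TPM in WT and 257.37, 282.16, 296.72 and 208.02 TPM in KO/+, and made up 49.6% to 63.5% of the summed Id TPM. Id3 ranged from 51.22 to 70.87 TPM, Id1 from 48.9 to 62.52 TPM and Id4 from 33.77 to 50.06 TPM. The order Id2, Id3, Id1, Id4 was seen in 5 of 7 libraries. In WT replicate 3, Id4 (50.06 TPM) stood above Id1 (48.9 TPM), and in KO/+ replicate 1, Id1 (55.09 TPM) stood above Id3 (51.22 TPM). Id2 stood clear of the next gene in all 7 libraries, while the ranges of Id3 and Id1 overlapped, as did those of Id1 and Id4.

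Each gene was read mainly as 1 transcript. Id1-201, the spliced form of 2 exons, made up 97.1% to 97.6% of Id1, and Id1-202, which keeps the intron, the other 2.38% to 2.88%. Id2-201 (3 exons) made up 96.3% to 98.4% of Id2, Id3-201 (3 exons) 93.3% to 96.1% of Id3 and Id4-201 (3 exons) 100% of Id4. Id3-203, a retained-intron form, made up 3.90% to 6.66% of Id3, and Id3-202 was listed at 0 in all libraries. Of the 8 Id transcripts past the filter, 0 passed edgeR's test (0% of 44375 transcripts did) and 0 had an unadjusted p under 0.05 (2.71% of all transcripts). Log2 fold changes of the main forms were 0.13 for Id1-201 (SE 0.11), 0.26 for Id2-201 (SE 0.24), 0.012 for Id3-201 (SE 0.091) and 0.17 for Id4-201 (SE 0.17).

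Id2 also had 2 minor forms past the filter. Id2-202, whose 4 exons begin upstream at chromosome 12 position 25097140 (minus strand), had 0.0517, 0.511 and 0.431 CPM in WT and 0.812, 0.787, 0.831 and 0.434 CPM in KO/+, at 2.13 to 29.53 expected counts per library. Like Id2-201 it was lowest in WT replicate 1 and highest in KO/+ replicates 1 to 3, with KO/+ replicate 4 between WT replicates 2 and 3. Its log2 fold change was 1.11 (SE 0.63, adjusted p = 0.9997), and 0.60 without WT replicate 1 or 1.54 without WT replicate 2. Id2-203, a form of a single exon, made up 3.70%, 2.72% and 1.43% of Id2 in WT and 1.42%, 1.84%, 2.86% and 3.18% in KO/+. The genotypes overlapped, and its log2 fold change was 0.15 (SE 0.32, adjusted p = 0.9997).

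**Figure D2:**
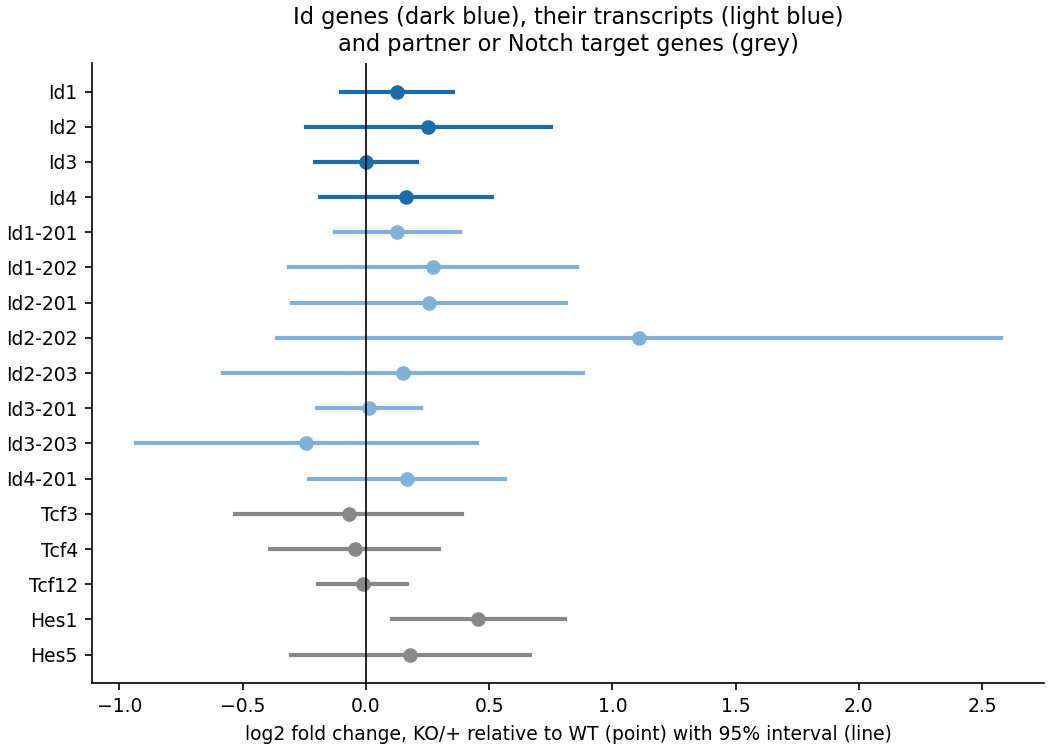
Log2 fold change of L3mbtl3 KO/+ relative to WT (points) with its 95% interval (lines) for the 4 Id genes, their transcripts, and partner or Notch target genes. The intervals of all 4 Id genes include 0; Id3 has the value nearest to 0 (-0.00073) and Id2-202 the widest interval of the Id transcripts, from -0.36 to 2.57.

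The partners of ID proteins were also measured. Of the 3 E protein genes, 0 passed the test, and their log2 fold changes were -0.069 for Tcf3 (SE 0.20), -0.046 for Tcf4 (SE 0.15) and -0.013 for Tcf12 (SE 0.079), with adjusted p-values of 0.972, 0.973 and 0.987; the sign of Tcf12 turned with upper-quartile scaling. Tcf4 was the most abundant, at 113.7 to 173.57 TPM. Summed over the 4 Id genes, WT libraries had 387 ± 68.5 TPM (SD, n = 3) and KO/+ libraries 424 ± 45.4 TPM (SD, n = 4), and summed over the 3 E protein genes the same libraries had 248 ± 47.5 and 229.6 ± 33.4 TPM. The Id sum divided by the E protein sum gave 1.15, 1.55 and 2.15 for the WT and 1.98, 2.27, 1.87 and 1.41 for the KO/+ libraries. The genotypes overlapped in this ratio, with the lowest value in WT replicate 1 and the highest in KO/+ replicate 2.

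Of 18 tissue-restricted bHLH genes, 15 passed the filter (all but Neurog1, Ptf1a and Tal2), with 6 positive and 9 negative fold changes, a median of -0.082 and 0 past the test. Atoh1, the factor that defines granule neuron progenitors, had 12.2, 11.0 and 3.44 CPM in WT and 3.30, 3.27, 8.63 and 10.1 CPM in KO/+, for a log2 fold change of -0.50 (SE 0.53). Neurod1, which drives granule neuron differentiation, had a log2 fold change of 0.088 (SE 0.18), and Neurod2, a related neuronal factor, 0.21 (SE 0.13). Tal1, a factor of blood and endothelial cells, had -1.29 (SE 0.45, unadjusted p = 0.0199, adjusted p = 0.957), with every KO/+ library below every WT library (as in 1.8% of all genes), a value set by 5.49 CPM in WT replicate 3; it was -0.45 without that library.

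The ligands, receptors and inhibitors of the BMP pathway, upstream of the Id genes, gave 0 genes past the test. Among the ligands, 6 of 9 passed the filter (all but Bmp3, Gdf6 and Gdf7), 4 with positive and 2 with negative fold changes and a median of 0.19. Bmp5 had 36.3, 31.3 and 32.2 CPM in WT and 64.1, 45.3, 45.3 and 29.0 CPM in KO/+, with a log2 fold change of 0.47 (SE 0.23, adjusted p = 0.957). KO/+ replicates 1, 2 and 3 were above every WT library, and KO/+ replicate 4 was below them all. The value was 0.26 without KO/+ replicate 1 and 0.28 with the choroid plexus score in the fit. Gdf10, a BMP family ligand made by Bergmann glia, was the most abundant by CPM, at 275, 244 and 328 CPM in WT and 337, 339, 289 and 333 CPM in KO/+, for a log2 fold change of 0.20 (SE 0.12).

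All 12 BMP receptor and SMAD genes passed the filter, with 4 positive and 8 negative values and a median of -0.060. The type I receptor Bmpr1a had a log2 fold change of 0.17 (SE 0.11), the type II receptor Bmpr2 -0.18 (SE 0.097). Among 13 BMP inhibitors, 12 passed the filter (all but Fst), 6 positive and 6 negative, with a median of 0.0081. Smurf1, a ubiquitin ligase for SMADs, had -0.15 (SE 0.088).

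The other targets of BMP signalling are read beside the Id genes. Of 7 such genes 4 had positive and 3 negative values, with a median of 0.057 and 0 past the test. Msx2, a homeobox gene induced by BMPs, had 8.56, 10.3 and 9.28 CPM in WT and 11.8, 10.7, 11.2 and 11.3 CPM in KO/+. Every KO/+ library was above every WT library, as in 2.16% of all genes, and the log2 fold change was 0.27 (SE 0.11, unadjusted p = 0.0368, adjusted p = 0.957). Its relative Msx1 had 0.63 (SE 0.40, adjusted p = 0.957), with overlapping groups, and 0.38 without WT replicate 3, 1.17 without WT replicate 2 and 0.31 with the choroid plexus score in the fit. The feedback inhibitors Smad6, Smad7 and Bambi had -0.026 (SE 0.32), -0.12 (SE 0.083) and 0.057 (SE 0.17).

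Of 6 Notch target repressors, bHLH proteins of the Hes and Hey kind and the Notch inhibitor Nrarp, 2 had positive and 4 negative values, with a median of -0.065 and 0 past the test. Hes1 had 5.51, 6.36 and 5.73 CPM in WT and 8.83, 8.90, 8.13 and 6.33 CPM in KO/+. KO/+ replicate 4 lay just under WT replicate 2 and the other 3 KO/+ libraries above all WT libraries, with a log2 fold change of 0.46 (SE 0.15, unadjusted p = 0.0171, adjusted p = 0.957). Hes5 had 0.18 (SE 0.21), Hey1 -0.064 (SE 0.11) and Heyl -0.32 (SE 0.31), all with an adjusted p of 0.957.

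Genes that control ID protein stability and the CDK inhibitors, some of which ID proteins repress, had small values. The 3 turnover genes were all positive, with a median of 0.054: Usp1, which removes ubiquitin from ID proteins, had 0.054 (SE 0.13) and Smurf2, a ubiquitin ligase, 0.087 (SE 0.069). All 6 CDK inhibitor genes past the filter (Cdkn2a was below it) were positive with a median of 0.026, among them Cdkn1a, which encodes p21, at 0.22 (SE 0.14) and Cdkn1c at 0.13 (SE 0.094). In both lists 0 genes passed the test.

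**Figure D3:**
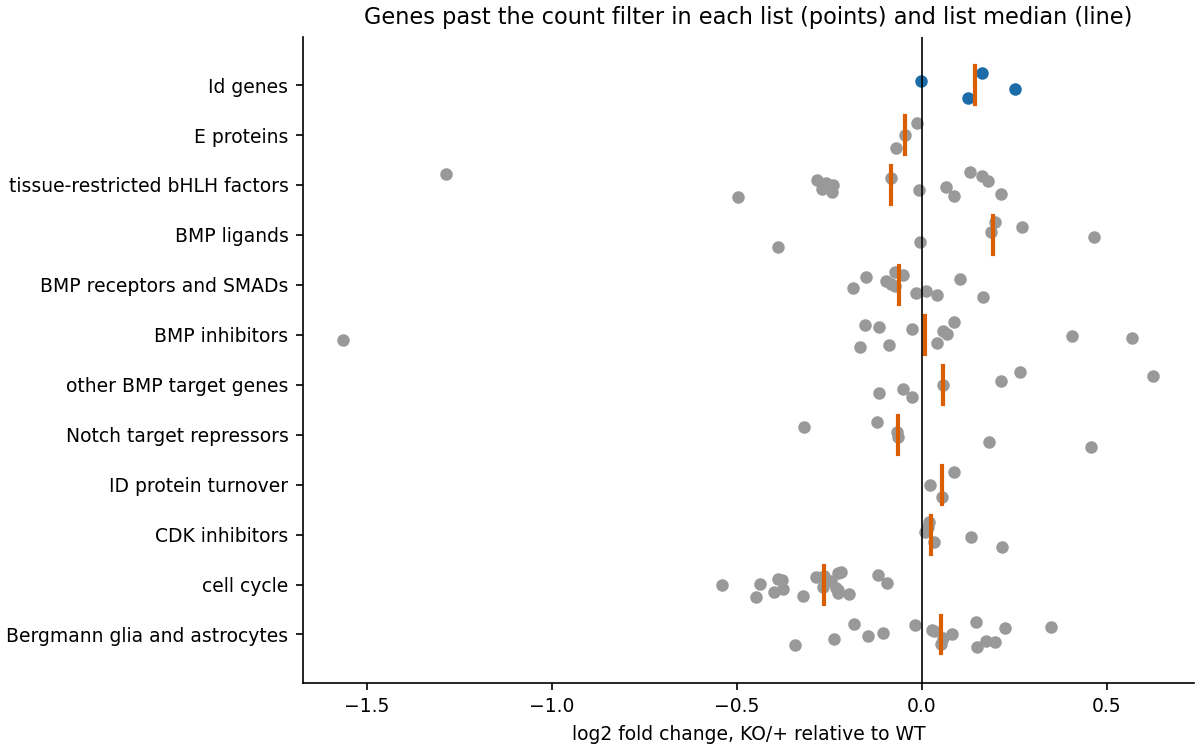
Log2 fold change of L3mbtl3 KO/+ relative to WT for each gene past the count filter (points) and the list median (lines), for the Id genes and the lists read beside them. The Id median is 0.14 and the cell cycle median is -0.26, and 0 of the genes shown passed the test.

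The Id values were then set against the proliferation marker Mki67. Mki67 had 194, 209 and 63.6 CPM in WT and 63.5, 61.4, 152 and 180 CPM in KO/+, so the libraries fell into 3 with 61.4 to 63.6 CPM and 4 with 152 to 209 CPM, both with libraries of each genotype. Its log2 fold change was -0.45 (SE 0.50, adjusted p = 0.957), and ran from -0.18 without WT replicate 2 to -0.82 without WT replicate 3. The 20 cell cycle genes all had negative values (median -0.26) and summed to 1067, 1109 and 415 CPM in WT and to 478, 431, 897 and 993 CPM in KO/+. The 10 granule neuron progenitor genes also had negative values (median -0.23), with sums of 786, 799 and 368 CPM in WT and of 437, 388, 665 and 715 CPM in KO/+. Because the libraries fall into these clusters, each of fewer than 6, no correlation with proliferation is given and the relation was not tested.

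In the order of Mki67 from low to high (KO/+ replicates 2 and 1, WT replicate 3, KO/+ replicates 3 and 4, WT replicates 1 and 2), Id4 had 121, 113, 116, 106, 87.7, 78.2 and 92.0 CPM. All 3 libraries low in Mki67 were above the other 4 in Id4, as in 12.6% of the 16813 genes tested. Id3 had 37.0, 33.3, 35.1, 39.3, 40.9, 39.7 and 38.2 CPM in the same order, and the same 3 libraries were the lowest, as in 14% of all genes. Such a separation was thus common among all genes. Id2 had 182, 170, 157, 175, 121, 91.0 and 159 CPM and Id1 had 22.6, 23.2, 19.2, 23.9, 19.2, 20.8 and 21.2 CPM, both with overlap between the clusters. Id2-203 made up 1.84%, 1.42%, 1.43%, 2.86%, 3.18%, 3.70% and 2.72% of Id2 in this order; this single-exon form was singled out after its values were seen. The ratio of Id to E protein TPM was 2.27, 1.98, 2.15, 1.87, 1.41, 1.15 and 1.55 in the same order. When the fit included the cell cycle score, the genotype log2 fold change was 0.097 for Id4 and 0.031 for Id3, against 0.16 and -0.00073 without it.

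**Figure D4:**
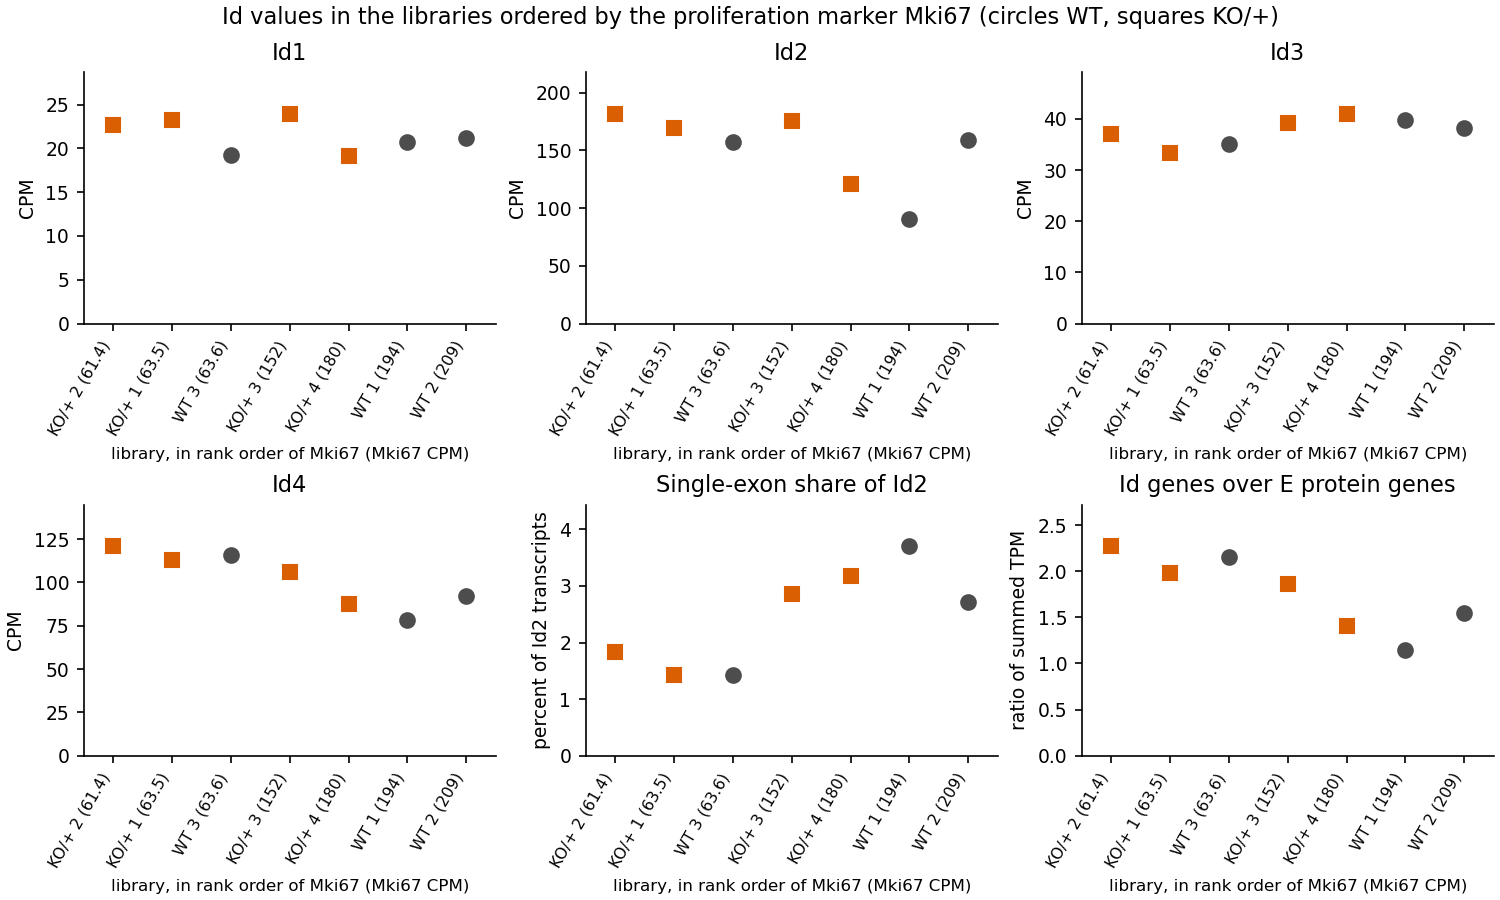
Id gene CPM and other Id values in the 7 libraries placed in rank order of Mki67 (its CPM is written under each library), circles for WT and squares for L3mbtl3 KO/+. Id4 is above 110 CPM in the 3 libraries with 61.4 to 63.6 CPM of Mki67 and between 78.2 and 106 CPM in the other 4.

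Glial genes were the other axis. The 17 markers of Bergmann glia and astrocytes had 11 positive and 6 negative fold changes (median 0.052, 0 past the test), with none at 0 in any library. They summed to 7128 to 9538 CPM in WT and to 7305 to 9421 CPM in KO/+. Gfap, the intermediate filament of astrocytes, had a log2 fold change of 0.052 (SE 0.10). Hopx had 0.17 (SE 0.077), with every KO/+ library above every WT library, as in 2.16% of all genes. Their score, the mean log2 CPM of the list, stood at 7.84, 7.80 and 8.12 in WT and at 7.95, 8.11, 7.91 and 7.86 in KO/+, with a largest gap of 0.487 of its range, just short of the 0.5 taken here to mark separate clusters. The 3 highest scores were those of the 3 libraries low in Mki67, so the libraries highest in the glial score were the lowest in cell cycle genes, and the parts of these gene groups in an Id level cannot be told apart. Not all members followed the score: Fabp7, a fatty acid binding protein of radial and Bergmann glia, had 307, 319 and 144 CPM in WT and 151, 143, 262 and 315 CPM in KO/+, lowest in the 3 libraries low in Mki67. Vim, an intermediate filament of immature glia, had 187, 202 and 148 CPM in WT and 158, 165, 187 and 198 CPM in KO/+, with the same 3 lowest. Both were singled out after their values were seen.

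Relations were computed between 4 Id genes and 2 scores, glial and endothelial, over the 7 libraries, a family of 8. A further 8 with the cell cycle and choroid plexus scores were not computed, because those scores fall into clusters. Id4 and the glial score had Pearson's r = 0.85 (exact permutation p = 0.0198, adjusted p = 0.159) and Spearman's rho = 0.86 (exact permutation p = 0.0238, adjusted p = 0.190), which did not pass the correction. On log2(TPM + 1), r for Id4 was lower, at 0.73 (exact permutation p = 0.0534, adjusted p = 0.427), and rho was again 0.86. Without WT replicate 3 and KO/+ replicate 2, the libraries farthest from the median score, r on log2 CPM was 0.79 for Id4, 0.67 for Id1, 0.47 for Id2 and -0.64 for Id3. Id1, Id2 and Id3 had r = 0.02, 0.51 and -0.58 with the glial score, with rho of 0.11, 0.43 and -0.64 (exact permutation adjusted p of 0.959, 0.587 and 0.587 for r, and 0.960, 0.566 and 0.533 for rho). With the endothelial and pericyte score, r was 0.07 for Id1, 0.47 for Id2, 0.22 for Id3 and 0.38 for Id4, with rho of 0.29, 0.57, 0.036 and 0.46 and none past the correction (exact permutation adjusted p of 0.617 to 0.959 for r). Without WT replicate 1 and KO/+ replicate 1 these r were 0.70, 0.95, -0.58 and 0.82, so these values depended on those 2 libraries. The 16 endothelial and pericyte genes summed to 448 to 553 CPM in WT and to 439 to 648 CPM in KO/+, with a median log2 fold change of -0.042 (7 positive, 9 negative, 0 past the test).

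Among the 6 pairs of Id genes, Id2 and Id4 had the highest Pearson's r between libraries, with r = 0.87 (exact permutation p = 0.00496, adjusted p = 0.0298) and rho = 0.75 (exact permutation p = 0.0663, adjusted p = 0.133). Without WT replicate 1 and KO/+ replicate 4, r was 0.45, so the relation rests on those 2 libraries. Id3 and Id4 had r = -0.71 (exact permutation p = 0.0752, adjusted p = 0.226) and rho = -0.79 (exact permutation p = 0.0480, adjusted p = 0.133). Id1 and Id2 had r = 0.53 (exact permutation p = 0.219, adjusted p = 0.329) and rho = 0.79 (exact permutation p = 0.0480, adjusted p = 0.133), and without KO/+ replicates 3 and 4 their r was 0.36. The other 3 pairs had r between -0.54 and 0.38 with adjusted p of 0.329 to 0.578 (exact permutation). The lowest of these, Id2 with Id3, turned to r = 0.22 without WT replicate 1 and KO/+ replicate 4.

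As a description with no test, the genes most like each Id gene over the 7 libraries were found among 10518 genes of at least 10 CPM, by Pearson's r of log2 CPM. The points share library depth and cell makeup. Id4 had 387 genes with r over 0.9, led by Sgms1 (r = 0.99), a sphingomyelin synthase, with 16.6, 20.3 and 28.1 CPM in WT and 26.7, 29.0, 23.4 and 18.5 CPM in KO/+. Ucp2, a mitochondrial carrier, and Ikbip followed at 0.98. Id1 had 67 such genes, led by Lyz2, the lysozyme of macrophages (0.98), Cop1, a ubiquitin ligase (0.97), and Zfp60 (0.97). Id3 had 49, led by Rhbdf1 (0.98), Hic2, a transcriptional repressor (0.98), and Smtn, a smooth muscle protein (0.96). Id2 had 16, led by Pcdhb11, a protocadherin (0.98), Rec8, a meiotic cohesin subunit (0.97, but rho 0.61), and 3830406C13Rik (0.96).

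Markers of the remaining cell types were read in the same way, with 0 genes past the test in each list. Oligodendrocyte precursor genes were negative in 8 of 8 (median -0.29), with sums of 603 to 861 CPM in WT and of 442 to 652 CPM in KO/+. In this list 1 gene, Gpr17, had an unadjusted p under 0.05. Its log2 fold change was -0.59 (SE 0.20, edgeR unadjusted p = 0.0183, adjusted p = 0.957). Every KO/+ library was below every WT library for Gpr17, as in 1.8% of all genes. Of the meningeal and fibroblast markers 7 of 10 were positive (median 0.26), 4 had an unadjusted p under 0.05 (3.15% of all genes did) and 2 had every KO/+ library above every WT library (2.16% of all genes). Among them Dcn, a proteoglycan of connective tissue, had 33.5, 36.0 and 35.7 CPM in WT and 42.8, 54.4, 46.5 and 41.8 CPM in KO/+, with a log2 fold change of 0.40 (SE 0.10, unadjusted p = 0.00416, adjusted p = 0.957). Values were also positive for 5 of 8 microglial (median 0.064) and 6 of 9 Purkinje cell genes (median 0.10). The choroid plexus genes were positive in 11 of 12 (median 0.79). The parts of oligodendrocyte precursors, meninges, microglia and Purkinje cells in the Id levels were not tested.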

How the data were processed

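Polyadenylated RNA of 7 P15 cerebella was sequenced as directional libraries, per the labels' protocols. The submitters' processing notes list the builds GRCm38 and mm10 and the tools bcl2fastq, Trimmomatic 0.39, STAR 2.5.2a and RSEM 1.3.1, with no strand setting (not given in the sources used here). Counts are the deposited expected counts, which RSEM estimated for each gene or transcript, per the file headers. The deposited TPM and FPKM, per the file headers, are scaled by length and library, and FPKM was not used. The deposited isoform percent, per the file headers, is the share of a gene's transcripts. Tables of the whole series were not used.

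Expected counts were rounded, filtered with filterByExpr, scaled by TMM factors and tested with edgeR 4.0.16 (glmQLFit and glmQLFTest, robust, no covariate; limma 3.58.1, DESeq2 1.42.0, R 4.3.3), with Benjamini-Hochberg adjustment over 16813 genes or 44375 transcripts and a threshold of 0.05. Read assignment between transcripts adds an error that the transcript test does not model. Log2 fold changes had a median SE of 0.142, at a common biological coefficient of variation of 18.7%. In simulated counts of this comparison over 16813 genes, 35.8% of genes changed 1.5-fold, 76.1% changed 2-fold and 98.5% changed 4-fold were recovered. There were 9 false calls. Each gene was simulated on its own, without the differences between libraries that many genes share here, so recovery in the real data may be lower. Scores are mean log2 CPM with a prior count of 2. Permutations used SciPy 1.17.1 (Python 3.11.15). Replicates of a genotype differed beyond sampling noise. Sequences are from RefSeq (GRCm38.p6), and all 55450 gene IDs matched GENCODE M21.

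The members and lists were chosen with earlier results of these data known. Named genes were the 4 Id genes, L3mbtl3, Mki67, 9 fixed partner and pathway genes, the 2 genes of each list with the smallest unadjusted p, and for each Id gene the 3 genes most like it; of these, those that bear on the Id genes are described, other list members are named by level, and some list members are not reported here. Alternatives were other scaling factors and filters, DESeq2, limma-voom, a block for the replicate number, limma-trend on log2(TPM + 1) and log2(TPM + 0.1), cell cycle or glial scores as covariates, a threshold of 0.1 and leaving out each library. A choroid plexus covariate was added after the data were seen.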

Additional observations from a re-analysis of the deposited data

Results flagged for a closer look

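In 65 groups of 4 libraries searched for a single value standing apart by Dixon's 95% criterion, 2 stood out, where chance gives about 1 in 20. The upstream Id2 transcript Id2-202 had 0.434 CPM in KO/+ replicate 4 against 0.787 to 0.831 CPM in the other KO/+ libraries. Gdf10, the Bergmann glial BMP family ligand, had 289 CPM in KO/+ replicate 3 against 333 to 339 CPM in the others.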

How the results depend on the processing

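Over 20 settings of scaling, filter, tool, covariate, block and left-out library, Id1, Id2 and Id4 kept positive log2 fold changes and no Id gene passed the threshold (adjusted p of 0.547 to 1.00 for Id1, 0.584 to 1.00 for Id2, 0.845 to 1.00 for Id3 and 0.598 to 1.00 for Id4). Leaving out 1 library at a time gave ranges of 0.077 to 0.18 for Id1, 0.026 to 0.38 for Id2, -0.053 to 0.053 for Id3 and 0.032 to 0.33 for Id4. With 3 and 4 libraries, differences as small as these Id estimates are below what the test recovers often, and the medians of all genes were -0.0087 with no scaling factors, -0.0094 with RLE and 0.0092 with upper-quartile factors, against -0.0047.

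Signs turned mostly for values near 0, and the cause was not tested. With upper-quartile factors, the log2 fold change was 0.013 for Id3 and 0.00058 for Tcf12. Under adjustment for the cell cycle score it was 0.031 for Id3, 0.058 for Tcf3, 0.046 for Tcf4, 0.014 for Tcf12, 0.041 for Rhbdf1, 0.040 for Hic2 and 0.023 for Smtn. With the glial score it was 0.019 for Id3, 0.030 for Tcf3, 0.031 for Tcf4, 0.0073 for Tcf12, 0.019 for Rhbdf1 and 0.020 for Hic2. With the choroid plexus score, added after the data were seen, it was 0.029 for Id3, 0.045 for Rhbdf1, 0.0074 for Hic2 and -0.11 for Rec8. The value of Rec8 in the main fit was not near 0, at 0.38 (SE 0.70). For 3830406C13Rik it was -0.037 on log2(TPM + 1) and -0.038 on log2(TPM + 0.1). On log2(TPM + 1), r of Id1 with the glial score was -0.45. On log2 CPM, r of Id3 with the endothelial score was -0.58 without the 2 libraries farthest from the median score.

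Leave-one-out ranges that crossed 0 were -0.26 to 0.066 for Tcf3, -0.20 to 0.055 for Tcf4, -0.076 to 0.029 for Tcf12, -0.11 to 0.20 for Neurod1, -0.031 to 0.15 for Gfap, -0.083 to 0.12 for Usp1, -0.15 to 0.74 for Rec8, -0.015 to 0.070 for 3830406C13Rik, -0.13 to 0.074 for Rhbdf1, -0.12 to 0.065 for Hic2, -0.22 to 0.070 for Smtn, -0.032 to 0.23 for Ikbip, -0.027 to 0.064 for Id3-201 and -0.053 to 0.38 for Id2-203. Beside those given with the results, ranges of described fold changes that kept their sign but moved by over 1.5 times were -0.89 to -0.20 for Atoh1, 0.084 to 0.28 for Neurod2, 0.065 to 0.33 for Hes5, -0.51 to -0.092 for Heyl, 0.11 to 0.23 for Bmpr1a, 0.095 to 0.32 for Gdf10, -0.21 to -0.096 for Smurf1, 0.038 to 0.11 for Smurf2, 0.11 to 0.30 for Cdkn1a, 0.062 to 0.18 for Cdkn1c, 0.022 to 0.40 for Id2-201, 0.028 to 0.35 for Id4-201 and 0.084 to 0.19 for Id1-201.

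Deviations of same-numbered libraries from their genotype means correlated at 0.32, -0.18 and -0.17. No WT library correlated best with the KO/+ library of its own number. WT replicates 1 and 2 were highest with KO/+ replicate 4 (0.34 and 0.49), and WT replicate 3 with KO/+ replicate 2 (0.59). From the KO/+ side, replicate 1 was highest with WT replicate 1 (0.32), while KO/+ replicates 2 and 3 were highest with a WT library of another number. With so few libraries, this cannot tell whether the numbers mark a shared litter or day. With the replicate number as a block, log2 fold changes were 0.19 for Id1, 0.41 for Id2, -0.044 for Id3, 0.26 for Id4 and -0.026 for Id3-201, and 1 gene of all tested was called, Eif3j2. KO/+ replicate 4 has no WT library of its number, so it added nothing to these fold changes. Leaving it out without a block gave 0.18 for Id1, 0.36 for Id2, -0.053 for Id3 and 0.24 for Id4. Leave-one-out counts of called genes ran from 0 to 1 (Wdfy1 without WT replicate 2, Fam220a without WT replicate 3, Eif3j2 without KO/+ replicate 4). These 3 names were chosen after their values were seen. Genes at an unadjusted p under 0.05, 530 of all tested, numbered 1029 with the block, 1030, 1236 and 147 with the cell cycle, glial and choroid plexus scores, 180 without KO/+ replicate 1 or 2, 975 without WT replicate 3 and 1562 without KO/+ replicate 4.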
